A study of Mus musculus with 9 samples.

Results

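The genes examined here are Grin2b, Gprc5a, Klra5, Clstn3, Phb2 and Rhno1, 6 of the 32035 genes in the data. They lie on mouse chromosome 6 between 120 and 140 Mb of GRCm38, among the 434 genes of that interval in the data. They were chosen by their difference between Kpna6-/- and WT testes, so their values in that comparison describe them and carry no test. Kpna6 encodes importin α7, an adaptor that carries proteins with a nuclear localization signal into the nucleus together with importin β, and lies on chromosome 4. Whole testes of WT, Kpna6ΔIBB/ΔIBB and Kpna6-/- mice at 15 weeks were measured by poly(A) RNAseq, with 3 samples per genotype. The samples are numbered in their labels, which do not say whether the 3 testes of a genotype came from separate mice, so P-values measure the spread between these samples, which may be technical.

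All 3 genotypes share the C57Bl6/N background, to which both mutant lines were backcrossed for 10 generations. In Kpna6ΔIBB/ΔIBB mice exon 2 of Kpna6 is missing, and translation from a cryptic start gives a truncated protein without the domain that binds importin β. In Kpna6-/- mice a gene trap cassette sits in intron 1. The study describes Kpna6 transcripts of testicular germ cells that start downstream of the trap, so in testis this line is not free of Kpna6 RNA. Neither mutation was restricted to a cell type, and genotypes on chromosome 6 were not examined here. Normalized counts of Kpna6 in CPM (counts scaled by TMM to a common library size over the 9 samples) were 201.2, 324.6 and 333.6 in WT, 81.22, 85.33 and 81.81 in Kpna6ΔIBB/ΔIBB and 247.1, 248.8 and 261.9 in Kpna6-/- testes. The Kpna6-/- values therefore lay within the WT range, and 1 WT testis lay below the other 2.

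Between 24859751 and 31484692 counts per testis fell on genes. The markers of spermatogonia, spermatocytes, spermatids, Sertoli cells and Leydig cells, 34 genes from lists of 6 to 8, were all detected. In Kpna6ΔIBB/ΔIBB testes 8 of 8 spermatid markers were called lower and 8 of 8 Sertoli cell markers higher than in WT, and in Kpna6-/- testes none of these 16 was called. Of 6 spermatogonial markers 3 were called higher and 1 lower in Kpna6ΔIBB/ΔIBB testes. There 1 of 6 spermatocyte markers was called lower and 2 of 6 Leydig cell markers higher. Over all genes 17.7% were called higher and 18.9% lower. In Kpna6-/- testes the only one of these markers called was the spermatogonial Gfra1, which was lower (log2 fold change -0.47, standard error 0.1). In whole tissue, fewer cells of a type and less RNA per cell cannot be told apart, and the part of these marker shifts in the Kpna6ΔIBB/ΔIBB and Kpna6-/- values below was not tested. A gene was called when its adjusted P-value from edgeR's quasi-likelihood test, taken over all genes tested, was below 0.05.

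The 6 genes belong to unrelated pathways. Grin2b encodes the GluN2B subunit of the NMDA receptor, a glutamate-gated cation channel best known at excitatory synapses. Gprc5a is an orphan G protein-coupled receptor that is induced by retinoic acid, and Clstn3 encodes calsyntenin 3, a synaptic adhesion protein of the cadherin superfamily. Klra5 encodes Ly49E, a lectin-like receptor of natural killer (NK) and T cells, from a cluster of closely related receptor genes called the NK gene complex. Phb2 encodes prohibitin 2, which forms ring-shaped scaffolds with prohibitin in the inner mitochondrial membrane. Rhno1 encodes RHINO, a partner of the 9-1-1 clamp and TOPBP1 in the ATR response to DNA damage.

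Levels of different genes were compared in TPM, the abundance of transcripts corrected for their length and scaled to the same total in each library. In WT testes Rhno1 was the most abundant of the 6 with 65.01 ± 3.106 TPM (SD, n = 3), followed by Phb2 with 55.18 ± 4.041, Clstn3 with 4.712 ± 0.5672, Grin2b with 2.86 ± 0.2213 and Gprc5a with 0.119 ± 0.04017. No estimated count was assigned to Klra5. The ranges of neighbours in this order did not overlap. In Kpna6ΔIBB/ΔIBB testes Phb2 (71.03 ± 2.982 TPM) stood above Rhno1 (61.83 ± 3.981 TPM), and the rest of the order was as in WT. In Kpna6-/- testes Grin2b (6.356 ± 0.4899 TPM) stood above Clstn3 (3.107 ± 1.005 TPM). There the ranges of Rhno1 and Phb2 overlapped, as did those of Gprc5a (1.463 ± 0.271 TPM) and Klra5 (1.301 ± 0.7722 TPM).

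**Figure D1:**
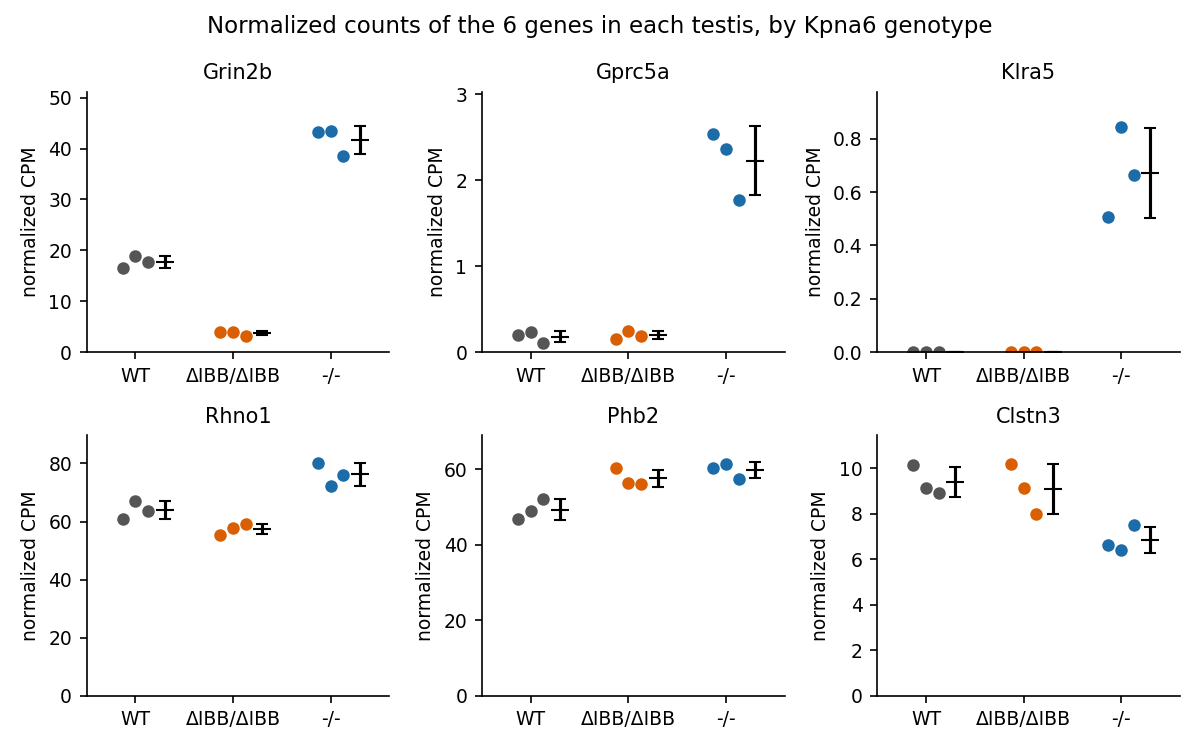
Normalized counts (CPM, linear axes from 0) of the 6 genes in each testis by Kpna6 genotype, with 1 point per testis and the mean ± SD (n = 3) beside the points. Grin2b stood near 17.71 CPM in WT, 3.718 in Kpna6ΔIBB/ΔIBB and 41.7 in Kpna6-/- testes, and Gprc5a and Klra5 stood apart in the Kpna6-/- testes only.

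Grin2b had a level of its own in each genotype. It lies at chr6:135713233-136173511 on the minus strand. Its normalized counts were 16.56, 18.87 and 17.69 CPM in WT, 3.983, 3.9 and 3.272 CPM in Kpna6ΔIBB/ΔIBB and 43.15, 43.36 and 38.58 CPM in Kpna6-/- testes. The 3 groups did not overlap, with Kpna6ΔIBB/ΔIBB lowest and Kpna6-/- highest. Against WT, the log2 fold change was 1.23 (standard error 0.07) in Kpna6-/- testes, a 2.35-fold higher level. In Kpna6ΔIBB/ΔIBB testes the log2 fold change was -2.25 (adjusted P = 3.47e-06, standard error 0.11), which brought it to 0.21 of the WT level (95% interval 0.182 to 0.244). This comparison did not choose the gene but shares its WT testes with the one that did. The call held in 14 of 14 alternative analyses, with log2 fold changes from -2.44 to -1.3 and adjusted P-values from 8.91e-55 to 0.00306. Between the mutant lines the log2 fold change was -3.5 (standard error 0.09, Kpna6ΔIBB/ΔIBB against Kpna6-/-).

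Most Grin2b counts were assigned to Grin2b-202, a transcript of 7484 bases with the full coding sequence of 4446 bases. Its mean was 16.64 ± 1.151 CPM (SD, n = 3) in WT, 2.846 ± 0.155 in Kpna6ΔIBB/ΔIBB and 37.12 ± 2.85 in Kpna6-/- testes. All other Grin2b transcripts together had 1.065 ± 0.06572, 0.8749 ± 0.2723 and 4.578 ± 0.732 CPM. The Kpna6-/- level was thus 2.231 times that of WT for Grin2b-202 and 4.299 times for the other transcripts. The Kpna6ΔIBB/ΔIBB level was 0.1711 times that of WT for Grin2b-202, while the other transcripts had overlapping values in these groups. Grin2b-201 encodes a coding sequence of the same length and carries 16593 non-coding bases at its 3′ end, at chr6:135713233-135729825, that no other Grin2b transcript holds. It made up 1.835% of Grin2b TPM in WT, 8.268% in Kpna6ΔIBB/ΔIBB and 3.581% in Kpna6-/- testes. Transcripts of a gene share reads, so the split between them is an estimate by kallisto.

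Grin2b was not the most abundant NMDA receptor subunit of these testes. Grin2d had 32.58 TPM in WT, 33.13 in Kpna6ΔIBB/ΔIBB and 30.53 in Kpna6-/- testes, and its log2 fold change against WT was -0.1 (standard error 0.05) in Kpna6ΔIBB/ΔIBB and -0.09 (standard error 0.05) in Kpna6-/- testes. Of the 6 other subunits, none was called between Kpna6-/- and WT, with a median log2 fold change of 0.2. Over all genes 1.6% were called in that comparison. In Kpna6ΔIBB/ΔIBB testes Grin2c was called higher (log2 fold change 0.58, adjusted P = 0.0366) and Grin3b lower (-0.42, adjusted P = 0.0283), against 17.7% and 18.9% of all genes. The summed TPM of 6 neuron markers was 138.9 to 148.3 in WT, 103.2 to 118.5 in Kpna6ΔIBB/ΔIBB and 136.1 to 148.7 in Kpna6-/- testes. Most of that sum was Map2 and Slc17a7, while Snap25 stood between 0.04612 and 0.3717 TPM. The neuron marker sum overlapped between WT and Kpna6-/- testes and was lower in Kpna6ΔIBB/ΔIBB testes. Of 5 neuron markers tested there against WT, Map2 and Slc17a7 were called lower. Rbfox3 (log2 fold change 0.4, standard error 0.26), Syt1 (-0.37, standard error 0.25) and Gad1 (-0.45, standard error 0.41) were not called. The part of neurons in the Grin2b values was not tested.

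Gprc5a was near the detection limit in 6 of the 9 testes and clearly present in the Kpna6-/- testes. It lies at chr6:135065651-135084709 on the plus strand and has a single annotated transcript. The estimated counts were 6, 7 and 3 in WT, 4, 8 and 6 in Kpna6ΔIBB/ΔIBB and 70, 73 and 48 in Kpna6-/- testes. Every Kpna6-/- testis stood above the 6 others, among which WT and Kpna6ΔIBB/ΔIBB overlapped. The log2 fold change of Kpna6-/- against WT was 3.58 (standard error 0.32), an 11.9-fold difference. Gprc5a passed the filter on low counts through the Kpna6-/- testes alone, and in the comparison of Kpna6ΔIBB/ΔIBB with WT it was filtered out. Without that filter the log2 fold change there was 0.14 (standard error 0.6, adjusted P = 0.904).

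Other GPRC5 receptors did not share this pattern of values. Gprc5b, with 65.64 TPM in WT the most abundant member of the family, and Gprc5c were both called higher in Kpna6ΔIBB/ΔIBB than in WT testes (log2 fold change 0.36, adjusted P = 0.00128, and 1.04, adjusted P = 0.0376). Neither was called between Kpna6-/- and WT, and Gprc5d was too low to be tested. Gprc5a is known from epithelia, and the summed TPM of 6 epithelial markers was 38.47 to 43.68 in WT, 43.24 to 120.8 in Kpna6ΔIBB/ΔIBB and 36.23 to 44.16 in Kpna6-/- testes. Most of the highest value was Spink8, which had 2.439, 2.149 and 0.8842 TPM in WT, 3.184, 8.989 and 81.27 in Kpna6ΔIBB/ΔIBB and 10.72, 3.569 and 3.217 in Kpna6-/- testes. Every Kpna6-/- testis was thus above every WT testis for Spink8, although Spink8 was not called there (log2 fold change 1.57, standard error 0.44). None of the 5 epithelial markers tested between Kpna6-/- and WT was called, with a median log2 fold change of -0.06. Besides Spink8, Krt18 had 0.67 (standard error 0.42), while Epcam had -0.28 (0.07), Krt8 -0.06 (0.11) and Cdh1 -0.39 (0.31). Lcn5 was at 0 TPM in all testes. Over all genes 1.6% were called in that comparison. The Spink8 mean of the Kpna6ΔIBB/ΔIBB testes rested mostly on 1 testis (81.27 TPM), so it is not set against the Gprc5a counts. The part of epithelial cells in the Gprc5a values was not tested.

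Klra5 was detected in the Kpna6-/- testes only. It lies at chr6:129898996-129917650 on the minus strand. Its estimated count was 0 in all 3 WT and all 3 Kpna6ΔIBB/ΔIBB testes and 14, 26 and 18 in the Kpna6-/- testes. Those 58 counts are few, and a count of 0 allows up to 3 counts over a group. Against that floor the Kpna6-/- level was at least 19.8-fold higher than in WT and at least 20.3-fold higher than in Kpna6ΔIBB/ΔIBB testes. These bounds cover counting error only. The counts were split between Klra5-201, with 0.6919, 0.2609 and 0.7471 TPM in the 3 Kpna6-/- testes, the shorter coding transcript Klra5-204 and the non-coding Klra5-203.

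Klra genes resemble each other, so the sequence behind these counts matters. Of the 1392 different stretches of 31 bases in the Klra5 transcripts, 88.6% occur in no other gene of the data. The other 159 are shared with 8 genes, most often with Klra9 (63 stretches). Over its 6 coding exons with 798 bases, Klra5-201 was identical to Klra9-202 at 90.0% of positions, with 80 mismatches. Exon 5 at chr6:129906602-129906741 was the most alike, with 11 mismatches over 140 bases, and exon 3 at chr6:129909862-129909951 the least alike, with 12 over 90 bases. Both are shown on the coding strand of GRCm38, taken from the GENCODE M21 transcripts, with mismatched bases in capitals. They let a reader see how densely the differences lie along a read.
Klra5 exon 5: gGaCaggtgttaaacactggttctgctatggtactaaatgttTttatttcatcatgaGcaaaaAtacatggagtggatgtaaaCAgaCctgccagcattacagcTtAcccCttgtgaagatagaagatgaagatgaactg
Klra9 match: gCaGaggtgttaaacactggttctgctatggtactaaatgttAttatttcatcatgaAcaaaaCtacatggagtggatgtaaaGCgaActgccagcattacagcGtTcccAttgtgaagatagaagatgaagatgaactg
Klra5 exon 3: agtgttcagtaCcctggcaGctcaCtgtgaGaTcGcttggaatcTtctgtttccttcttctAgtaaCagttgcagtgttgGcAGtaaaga
Klra9 match: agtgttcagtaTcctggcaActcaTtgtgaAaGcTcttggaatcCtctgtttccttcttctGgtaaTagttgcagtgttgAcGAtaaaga

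Klra9 had 0.5718 TPM in WT, 0.5607 in Kpna6ΔIBB/ΔIBB and 0.4027 in Kpna6-/- testes. It was the only other Klra gene that passed the filter on low counts, with a log2 fold change of -0.52 (standard error 0.41) for Kpna6-/- against WT, which was not called. The summed TPM of 11 Klra genes was 0.8727 to 1.632 in WT, 0.9407 to 1.611 in Kpna6ΔIBB/ΔIBB and 1.674 to 2.888 in Kpna6-/- testes. This sum leaves out pseudogenes and includes Klra5 itself, which had 0.6926, 2.17 and 1.04 TPM in the Kpna6-/- testes. Because related genes share sequence, the assignment of so few reads among them remains uncertain. Markers of NK and T cells were low throughout. Their summed TPM over 10 genes was 3.578 to 5.022 in WT, 3.805 to 4.954 in Kpna6ΔIBB/ΔIBB and 3.074 to 4.715 in Kpna6-/- testes. The NK cell receptor Ncr1 was at 0 in all WT testes and reached at most 0.06523 TPM. None of the 4 NK and T cell markers tested was called between Kpna6-/- and WT, with a median log2 fold change of -0.48. Over all genes 1.6% were called there. The log2 fold changes of the 4 markers were -1.06 for Klrb1c (standard error 0.41), -0.91 for Eomes (0.35), -0.05 for Prf1 (0.2) and 0.28 for Cd3e (0.38). The part of NK and T cells in the Klra5 values was not tested.

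Other lectin-like receptors of the same complex moved in both directions. Klrb1a was called higher (log2 fold change 1.81, standard error 0.32) and Klrb1 lower (-1.19, standard error 0.13) in Kpna6-/- than in WT testes, out of 6 tested. Klrb1 is better expressed than Klra5, with 37.65 TPM in WT, 32.98 in Kpna6ΔIBB/ΔIBB and 16.37 in Kpna6-/- testes. In Kpna6ΔIBB/ΔIBB testes Klrb1a was also higher than in WT (1.94, adjusted P = 0.00151), as was Clec2d (0.47, adjusted P = 0.0437), out of 5 tested. Over all genes 1.6% were called in Kpna6-/- testes, and 17.7% were called higher in Kpna6ΔIBB/ΔIBB testes.

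Clstn3 was the only gene of the 6 that was lower in Kpna6-/- than in WT testes. It lies at chr6:124430759-124464794 on the minus strand. Its normalized counts were 10.15, 9.123 and 8.918 CPM in WT, 10.19, 9.152 and 7.992 CPM in Kpna6ΔIBB/ΔIBB and 6.629, 6.427 and 7.502 CPM in Kpna6-/- testes. The Kpna6-/- testes lay below both other groups, which overlapped each other. The log2 fold change was -0.46 (standard error 0.10) for Kpna6-/- against WT, to 0.728 of the WT level. For Kpna6ΔIBB/ΔIBB against WT it was -0.04 (standard error 0.11, adjusted P = 0.793), with a 95% interval of the ratio from 0.834 to 1.13. Clstn3-201, which holds the longest coding sequence, carried most of the counts with 8.908 ± 0.541, 8.315 ± 1.138 and 6.487 ± 0.3696 CPM (SD, n = 3) in WT, Kpna6ΔIBB/ΔIBB and Kpna6-/- testes. On the TPM scale the distance between WT (lowest value 4.267 TPM) and Kpna6-/- testes (highest value 4.219 TPM) was narrow. That highest testis had 1.609 TPM of the short non-coding transcript Clstn3-203, against 0.1767 and 0.8045 in the other 2. Neither Clstn1, the most abundant calsyntenin with 15.94 TPM in WT, nor Clstn2 was called in either mutant line against WT.

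Phb2 was higher than WT in both mutant lines. It lies at chr6:124712336-124716950 on the plus strand. Its normalized counts were 46.75, 48.97 and 52.16 CPM in WT, 60.27, 56.36 and 56.1 CPM in Kpna6ΔIBB/ΔIBB and 60.46, 61.48 and 57.36 CPM in Kpna6-/- testes. The mutant lines overlapped each other, and both lay above all WT testes. The log2 fold change was 0.28 (standard error 0.05) for Kpna6-/- and 0.23 (standard error 0.06, adjusted P = 0.0095) for Kpna6ΔIBB/ΔIBB against the same WT testes. The latter call held in 14 of 14 alternatives, with adjusted P-values from 0.00136 to 0.0448. The transcript Phb2-201, which encodes the full protein, carried 91.88%, 91.27% and 91.83% of Phb2 TPM in WT, Kpna6ΔIBB/ΔIBB and Kpna6-/- testes.

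The partner of prohibitin 2 did not follow it. Phb was called lower in Kpna6ΔIBB/ΔIBB than in WT testes (log2 fold change -0.24, adjusted P = 0.00894). It was not called in Kpna6-/- testes (-0.01, standard error 0.06). Among 8 other genes of prohibitin and inner-membrane proteostasis, 1 was called higher and 3 lower in Kpna6ΔIBB/ΔIBB testes. Over all genes 17.7% were called higher and 18.9% lower there, so this count describes the 8 genes only. The gene called higher was the protease subunit Afg3l2 (0.15, adjusted P = 0.0493), and besides Phb the proteases Afg3l1 (-0.26, adjusted P = 0.00304) and Yme1l1 (-0.29, adjusted P = 0.000164) were called lower. None of the 8 was called between Kpna6-/- and WT, where 1.6% of all genes were called.

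Rhno1 differed from WT in opposite directions in the mutant lines. It lies at chr6:128357000-128362911 on the minus strand. Its normalized counts were 61.01, 67.02 and 63.7 CPM in WT, 55.45, 57.84 and 59.09 CPM in Kpna6ΔIBB/ΔIBB and 80.24, 72.38 and 76.02 CPM in Kpna6-/- testes. The 3 groups did not overlap on this scale, while in TPM Kpna6ΔIBB/ΔIBB and WT testes overlapped. The log2 fold change against WT was 0.25 (standard error 0.05) in Kpna6-/- and -0.15 (standard error 0.05, adjusted P = 0.0465) in Kpna6ΔIBB/ΔIBB testes. The latter call was lost in 8 of 14 alternatives, 4 of them with 1 testis left out (WT replicate 2, WT replicate 3, Kpna6ΔIBB/ΔIBB replicate 1 or Kpna6ΔIBB/ΔIBB replicate 2), and adjusted P-values ranged from 0.0265 to 0.493. With scaling by library size only, which moved the median of all genes to 0.107, it was -0.05.

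The higher Rhno1 count of the Kpna6-/- testes was assigned to Rhno1-203. This transcript had 12.32, 12.49 and 9.541 CPM in WT, 11.39, 8.563 and 10.53 CPM in Kpna6ΔIBB/ΔIBB and 25.83, 25.07 and 26.63 CPM in Kpna6-/- testes. Its mean in Kpna6-/- was 2.257 times that in WT, with no overlap. All other Rhno1 transcripts together had 52.45 ± 3.272 CPM (SD, n = 3) in WT and 50.38 ± 3.639 in Kpna6-/- testes, which overlapped. Rhno1-203 made up 12.13% of Rhno1 TPM in WT, 12.45% in Kpna6ΔIBB/ΔIBB and 24.5% in Kpna6-/- testes.

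Rhno1-201, Rhno1-202 and Rhno1-203 have coding sequences of the same length, 705 bases, and differ outside them. Rhno1-203 reaches 360 bases further at the 3′ end of the gene, at chr6:128357000-128357359, a non-coding stretch that no other Rhno1 transcript holds. The polyadenylation motif AATAAA occurred on the transcript strand in the last 60 bases of Rhno1-201 and Rhno1-202 and not in those of Rhno1-203. It was found in the same window of 29.7% of 95103 annotated transcripts. A match describes letters only and does not show where transcripts ended in these testes. No exon of Rhno1 or of the 5 other genes overlapped an exon of another gene in the data. Among 10 other genes of the 9-1-1 checkpoint, none was called in either mutant line against WT. Over all genes 1.6% were called in Kpna6-/- and 36.6% in Kpna6ΔIBB/ΔIBB testes. The median log2 fold change of the 10 checkpoint genes was -0.03 in Kpna6-/- and -0.06 in Kpna6ΔIBB/ΔIBB testes.

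**Figure D2:**
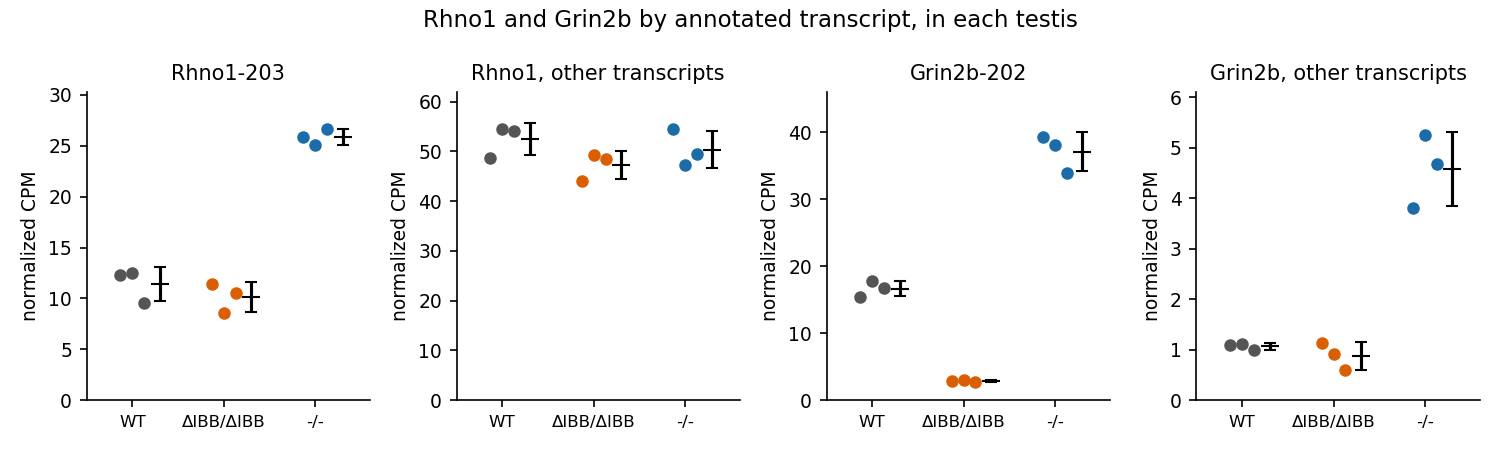
Normalized counts (CPM, linear axes from 0) of Rhno1-203, the other Rhno1 transcripts, Grin2b-202 and the other Grin2b transcripts in each testis, with the mean ± SD (n = 3) beside the points. Rhno1-203 stood at 25.84 CPM in Kpna6-/- against 11.45 CPM in WT testes, while the other Rhno1 transcripts overlapped between the groups.

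All 6 genes were tested between Kpna6-/- and WT, and 5 were called higher and 1 lower, with no overlap for any of them. Of the 18681 genes tested, 0.889% were called higher and 0.712% lower, and 20.0% had groups that did not overlap. Since this comparison chose the genes, nothing follows from their count. As a limit, the calls of Klra5, Phb2, Rhno1 and Clstn3 were lost in 2 of 13, 6 of 14, 9 of 14 and 12 of 14 alternatives. A call kept here is no support, since each alternative used the values that chose the genes. The Clstn3 call was lost when any of the 6 testes was left out, that of Phb2 without WT replicate 2, Kpna6-/- replicate 1 or Kpna6-/- replicate 2, and that of Rhno1 when any of the 6 was left out.

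Between Kpna6ΔIBB/ΔIBB and WT, 4 of the 6 genes could be tested. Phb2 was called higher, Grin2b and Rhno1 were called lower, and these 3 did not overlap. In this comparison 17.7% of all genes tested were called higher, 18.9% lower, and 50.0% did not overlap, so calls for 3 of 4 genes stand against a large background. The comparison between the mutant lines shares the Kpna6-/- testes that chose the genes, and Gprc5a and Klra5 passed its filter only through those testes. Its calls, Clstn3 higher and Grin2b, Gprc5a, Klra5 and Rhno1 lower in Kpna6ΔIBB/ΔIBB testes, are therefore a description from which nothing is read. Over all genes 13.5% were called higher there, 16.8% lower, and 44.5% did not overlap.

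**Figure D3:**
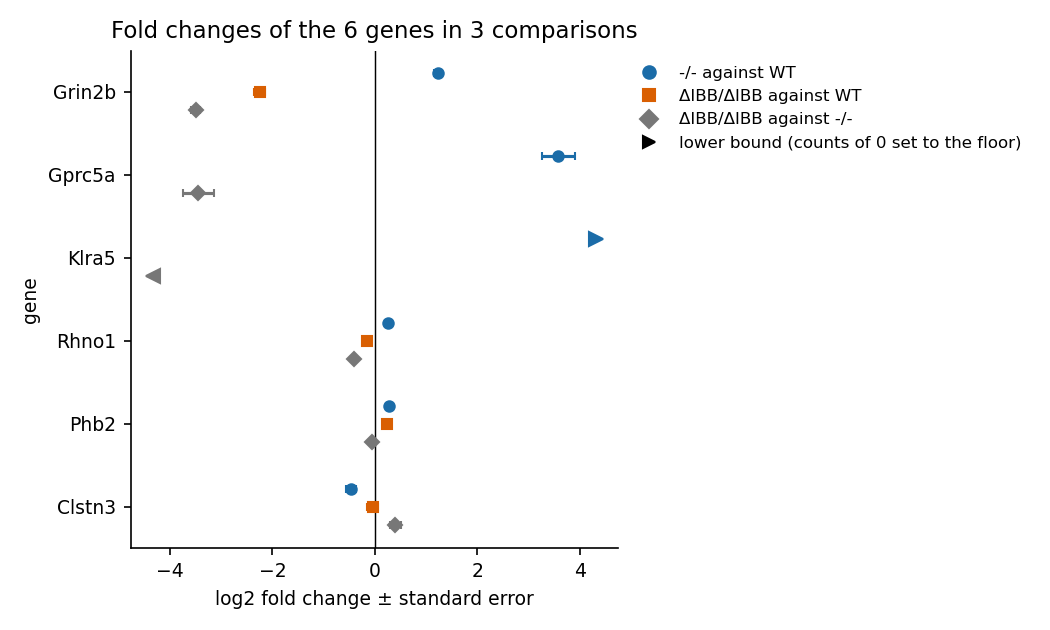
Log2 fold changes (points) with standard errors (bars) of the 6 genes in 3 comparisons, from edgeR, with lower bounds (triangles) for Klra5, which had no counts in WT and Kpna6ΔIBB/ΔIBB testes. Grin2b and Rhno1 lay on opposite sides of 0 in the mutant lines against WT, Phb2 lay above 0 in both, and Gprc5a and Klra5 have no value for Kpna6ΔIBB/ΔIBB against WT.

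The 6 genes were not alone in their interval. Between Kpna6-/- and WT, 19 of the 188 genes tested from 120 to 140 Mb were called (10.1%), 12 higher and 7 lower, against 11 of 716 (1.54%) on the rest of chromosome 6. The interval was selected on these calls, so the contrast is a description. The count was 6 (3.17%) with length-scaled TPM counts and 2 (1.06%) with limma on log2(TPM + 1), where the share called over all genes went from 1.6% to 0.39% and 0.118%. It was 10 to 19 with 1 testis left out, falling to 12 without WT replicate 2, 11 without Kpna6-/- replicate 1 and 10 without Kpna6-/- replicate 2. The calls ran from Clstn3, which starts at 124430759, to BC049715, which ends at 136840662. The nearest calls outside the interval were Ppp4r2 at chr6:100833622-100869934 (log2 fold change -0.3) and Ldhb at chr6:142490249-142507957 (0.44).

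The calls fell into separate stretches of the interval. From 124 to 126 Mb, which holds Clstn3 and Phb2, 6 of 51 genes tested were called, 3 in each direction. From 128 to 130 Mb, with Rhno1, Klra5 and the NK gene complex, there were 4 higher and 2 lower among 35. From 132 to 134 Mb 2 of 4 were called, from 134 to 136 Mb, which holds Gprc5a and Grin2b, 4 of 18, and from 136 to 138 Mb 1 of 20. None was called among the 60 genes tested in the other bins of 2 Mb, 15 of them between 126 and 128 Mb.

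Apart from the 6 genes, 7 of the others were called higher and 6 lower in Kpna6-/- testes. The largest differences were those of Plekhg6, with a log2 fold change of 1.9 (standard error 0.29), and of Klrb1a and Klrb1. Gm44245 (0.73), the TNF receptor family gene Ltbr (0.57), Smim10l1 (0.51), the MAP kinase phosphatase Dusp16 (0.5) and Clec12b (0.37) were also higher. Gapdh, the glycolytic enzyme, had a log2 fold change of -0.59 and the orphan receptor gene Gpr162 of -0.54. Mouse Gapdh is known for its many processed pseudogenes, so its counts are uncertain. Their values in Kpna6ΔIBB/ΔIBB testes were taken against the same WT testes. There Gm44245 (0.82, adjusted P = 9.61e-05), Ltbr (0.71, adjusted P = 0.000104), Clec12b (0.6, adjusted P = 0.000189) and Smim10l1 (0.34, adjusted P = 0.0188) were called higher than in WT, as was Klrb1a. Gm18609 (-0.64, adjusted P = 4.67e-05) and BC049715 (-0.52, adjusted P = 1.93e-05), which had -0.33 and -0.24 in Kpna6-/- testes, were called lower. Gapdh was called higher (0.49, adjusted P = 2.58e-05). Plekhg6 (0.12, adjusted P = 0.815), Dusp16 (-0.11, adjusted P = 0.151), Klrb1 (-0.32, adjusted P = 0.0788), Gpr162 (-0.15, adjusted P = 0.15) and Pbp2 (-0.01, adjusted P = 0.894) were not called.

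Close neighbours of the 6 genes mostly were not called. Taking the 3 nearest tested genes on each side, 35 different neighbours were tested between Kpna6-/- and WT, and 1 was called, Pbp2, a phosphatidylethanolamine-binding protein gene 402.8 kb from Grin2b (log2 fold change -0.34, standard error 0.06). Over all genes 1.6% were called in that comparison, so the count of neighbours describes them only. Log2 fold changes of the 35 neighbours ran from -0.8 to 0.54. Of the closest, Foxm1, 0.1 kb from Rhno1, had 0.03 (standard error 0.04) and Emg1, 0.2 kb from Phb2, had 0.07 (standard error 0.06). Between Kpna6ΔIBB/ΔIBB and WT 9 of 36 neighbours were called, among them Tex52 beside Rhno1 (-1.1, standard error 0.08) and Emg1 beside Phb2 (0.19, standard error 0.06). Over the whole interval that comparison called 65 of 187 genes tested (34.8%), 36 higher and 29 lower, against 38.9% on the rest of the chromosome. With scaling by library size only these were 53 higher and 22 lower.

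**Figure D4:**
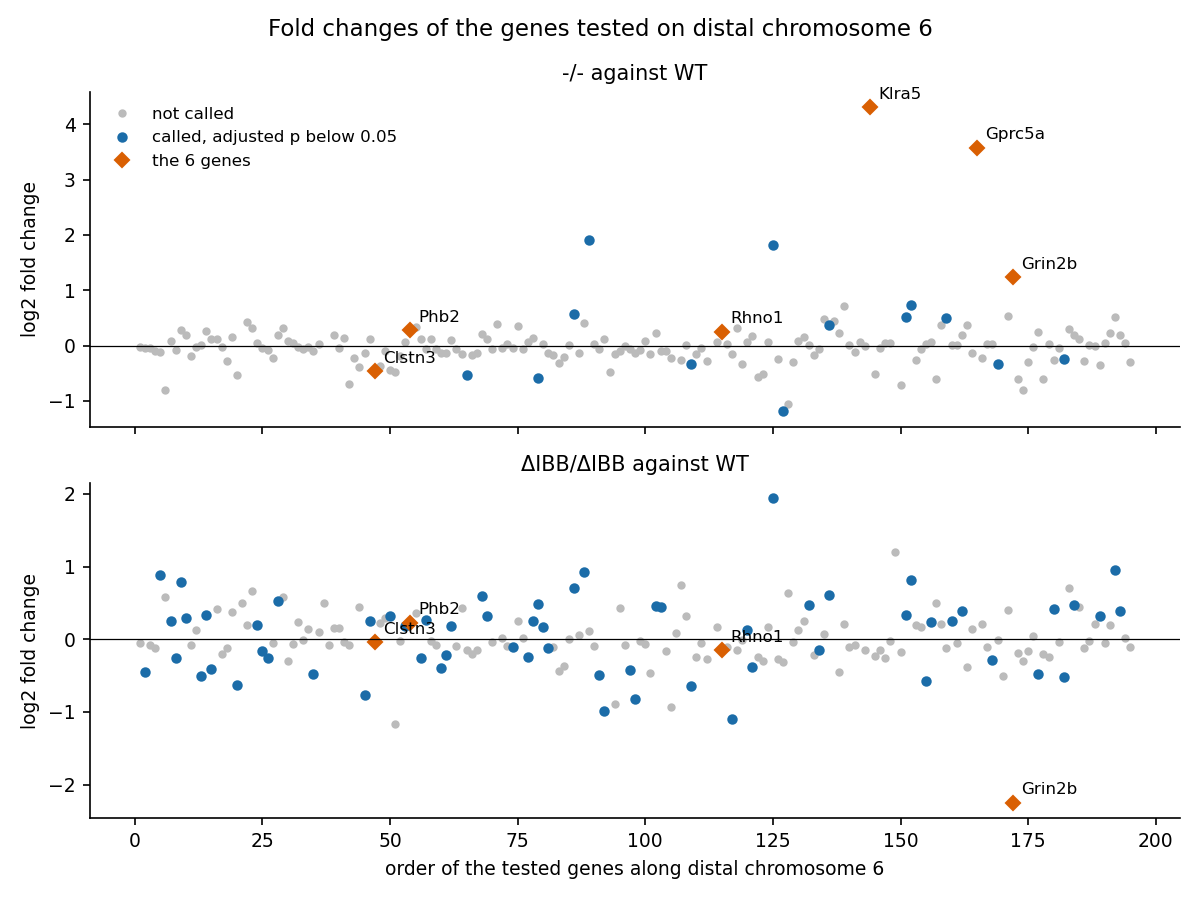
Log2 fold changes of the genes tested between 120 and 140 Mb of chromosome 6 in their order along it, for Kpna6-/- against WT (top) and Kpna6ΔIBB/ΔIBB against WT (bottom), with the 6 genes as diamonds (Klra5 at its lower bound of 4.31), other called genes in blue and the rest in grey. At the top 19 of 188 genes were called and most points lie near 0, while at the bottom 65 of 187 were called.

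Genes with the most similar values over the 9 testes were sought among 19084 genes by Pearson correlation of log2(CPM + 1). These are descriptions, since testes of a genotype share that genotype. Grin2b was most like 1700003F12Rik (r = 0.986), Itpr3 (0.986), which encodes an inositol trisphosphate receptor, and 1700020A23Rik (0.984). Gprc5a and Klra5 shared Gm13394 (0.99 and 0.975) and Mplkip (0.984 and 0.975), and Gprc5a was among the 3 genes most like Klra5 (0.966). The gene most like Clstn3 was BC107364 (0.967), and Gpr162 of the same interval was among its 3 (0.918). Rhno1 was most like Rnf19b (0.987) and Phb2 most like Ppcdc (0.969). Of these 18 places, 2 were taken by genes of the interval. Rnf19b lies on chromosome 4, as Kpna6 does. So do Mecr, among the genes most like Gprc5a (0.975), and Ptp4a2, among those most like Clstn3 (0.929). The list was not particular to chromosome 4. On chromosome 2 lie 1700003F12Rik, 1700020A23Rik and Gm13394, and on chromosome 13 lie Mplkip and Zscan12, which was among the genes most like Rhno1 (0.971 to 0.987).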

How the data were processed

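The authors deposited 1 table per testis, made with kallisto (version 0.45 in the submitters' processing notes, mm10), with an estimated count and a TPM value for each of 96626 transcripts. Both were summed per gene by GENCODE M21 (GRCm38) identifiers, which matched 95301 transcripts. Libraries were NEBNext Ultra, and use of strand is not given in the sources used here. Rounded counts of the 6 samples compared were filtered with filterByExpr, scaled by TMM and fitted in edgeR 4.0.16 (R 4.3.3; glmQLFit, glmQLFTest), and P-values were adjusted after Benjamini-Hochberg over every gene tested. Standard errors from edgeR were the absolute log2 fold change divided by the square root of the F statistic. The 95% intervals span 1.96 standard errors on each side, a normal approximation. The study's sleuth test was not used here. Alternatives were DESeq2 1.42.0, library size only, no filter, sleuth's filter, a replicate block, all 9 samples, length-scaled TPM counts, limma 3.58.1 on log2(TPM + 1), and leaving out 1 sample at a time. The procedure was tested on counts simulated for Kpna6-/- against WT, with 200 of 18681 genes changed by a log2 fold change of 1 in either direction. It recovered 185 of the 200 and made 20 false calls, a larger share of its calls than the threshold of 0.05 aims at. The changed genes were drawn from those with a mean above 1 CPM, so genes as low as Klra5 were not covered. Nor were changes as small as those of Phb2 (0.28), Rhno1 (0.25) and Clstn3 (-0.46) in that comparison. No replicates agreed within sampling noise.

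The 6 genes, the gene families, marker lists and rules were chosen with earlier results of these data known. Named genes are the 6 genes, Kpna6, their transcripts with a mean of at least 0.1 TPM, called neighbours, at most 10 other called genes of the interval with the largest changes, family members that were tested, and the 3 most similar genes. Foxm1, Emg1, Pbp2, BC049715, Gm18609, Ppp4r2, Ldhb, Tex52 and single markers were named after their values were seen. Shared sequence was counted over stretches of 31 bases. Transcript matches of 95% identity over at least 50% of a transcript were sought with blastn 2.17.0+ and found in 0 other genes of the data.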

Additional observations from a re-analysis of the deposited data

Results flagged for a closer look

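Grin2b and Rhno1 stood on opposite sides of the WT testes in the mutant lines. In normalized CPM every Kpna6-/- testis was above and every Kpna6ΔIBB/ΔIBB testis below all 3 WT testes. In TPM this held for Grin2b, while for Rhno1 the Kpna6ΔIBB/ΔIBB testes, with 57.32, 64.82 and 63.36, overlapped the WT testes, with 61.45, 66.43 and 67.16. The call of Rhno1 in Kpna6ΔIBB/ΔIBB against WT was lost in 8 of 14 alternatives, with a log2 fold change of -0.05 under scaling by library size only. The distance between the lines was -3.5 on the log2 scale for Grin2b and -0.41 for Rhno1 (Kpna6ΔIBB/ΔIBB against Kpna6-/-). The 2 effects share their WT testes, and their difference was not tested.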

How the results depend on the processing

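Of 222 values of the 6 genes under alternative settings, 172 kept their direction and side of the threshold, 44 kept the direction and lost the call, and 6 changed sign. The sign changes were those of Clstn3 in Kpna6ΔIBB/ΔIBB against WT (0.05 with library size only, 0.07 with limma, and -0.13 to 0.04 with 1 testis left out) and of Phb2 between the lines (0.04 with library size only, 0.07 with limma), none of them called. The number of genes of the interval called between Kpna6-/- and WT moved from 19 to 6 with length-scaled TPM counts, to 2 with limma on log2(TPM + 1), and to between 10 and 19 with 1 testis left out, as the share called over all genes fell from 1.6% to 0.39% and 0.118% with the first 2. The cause was not tested. Values from the comparison that chose the genes are no support for them. The 65 and 67 calls of the other comparisons stayed within 1.5 times.

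Same-numbered samples did not deviate together (correlations -0.048 to 0.119). No pairing by number was thus seen, though correlations near 0 cannot exclude one. With a replicate block the interval held 16, 67 and 69 calls in Kpna6-/- against WT, Kpna6ΔIBB/ΔIBB against WT and Kpna6ΔIBB/ΔIBB against Kpna6-/-. Library size only moved the split between the lines from 32 higher and 35 lower to 54 and 25. Summing near-identical genes gave no value, as none matched, and DESeq2 gave no adjusted P-value for Klra5. Klra5 and Gprc5a rest on few counts.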
